A study of Mus musculus with 6 samples.

Results

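mmu-miR-26a-5p and mmu-miR-26b-5p (below without the species prefix) are the guide strands of a small miRNA family. They were taken by name from a mouse miRNA array that holds 1881 mouse miRNAs, so 2 of 1881 are described here, each through 2 probes. The array measured exosomal RNA of RAW 264.7 cells, a mouse macrophage line, in 3 control samples and 3 LPS samples, with 1 array for each. LPS, a lipid-bearing sugar of bacterial outer membranes, is sensed by macrophages through the receptor TLR4. The LPS samples were from medium harvested 72 h after 2 µg/mL was added. The labels give the controls no culture time, so culture time and LPS cannot be told apart. All 6 samples came from the same cell line, and exosomes were taken from concentrated supernatant by size exclusion. Whether replicates were separate cultures is not stated, so p-values reflect only the spread among these samples, possibly a technical one.

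The miR-26 miRNAs are found in most tissues and are counted among the growth-restraining miRNAs: MYC is known to repress them, and Ezh2, a histone methyltransferase, is a known target. They are also known for binding the mRNA of the cytokine Il6, an action that uridylation of the miRNA's 3′ end is known to weaken. Their hairpins lie within the genes of the Ctdsp family, which encode small phosphatases that act on RNA polymerase II. The mouse gene table places Mir26a-1 in Ctdspl on chromosome 9, Mir26a-2 in Ctdsp2 on chromosome 10 and Mir26b in Ctdsp1 on chromosome 1.

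The mature sequences are shown first because both miRNAs carry the same seed and differ in few bases. The RefSeq miRNA table (GRCm38.p6) gives them as follows, 5′ to 3′, with the seed (bases 2 to 8) in capitals.
miR-26a-5p: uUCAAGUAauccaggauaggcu
miR-26b-5p: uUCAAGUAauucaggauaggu
Counted from the 5′ end of miR-26a-5p, the substitutions to miR-26b-5p are C11U and C21U, and miR-26a-5p is 22 bases long against 21. Of 1679 mature miRNA names in that table, these 2 alone hold the seed UCAAGUA. miR-26a-5p comes from 2 hairpins and miR-26b-5p from 1. They are printed here with the mature 5p strand in capitals, to show that both miR-26a hairpins give the same mature strand, so that no probe can separate them.
Mir26a-1: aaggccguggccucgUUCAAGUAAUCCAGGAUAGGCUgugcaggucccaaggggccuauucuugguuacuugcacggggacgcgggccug
Mir26a-2: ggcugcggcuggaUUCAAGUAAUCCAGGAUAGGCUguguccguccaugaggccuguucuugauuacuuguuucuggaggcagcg
Mir26b: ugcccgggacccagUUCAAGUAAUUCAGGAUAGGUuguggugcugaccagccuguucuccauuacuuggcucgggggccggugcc

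The probes pair with the 3′ part of each miRNA, and the members were read through stretches of different length. The probe sequences in the files are given below, 5′ to 3′, with the bases opposite the 2 substituted positions in capitals.
miR-26a-5p, 15-base probe: aGcctatcctgGatt
miR-26a-5p, 16-base probe: aGcctatcctgGatta
miR-26b-5p, 19-base probe: AcctatcctgAattacttg
miR-26b-5p, 20-base probe: AcctatcctgAattacttga
The 16-base probe of miR-26a-5p pairs with mature bases 7 to 22, and the 20-base probe of miR-26b-5p with bases 2 to 21. Each of the 4 probes spans both substitutions; how far a probe binds the other member was not tested. By the mm9 positions that the files list, the 16-base probe lies at chr9:118940935-118940950 and chr10:126432605-126432620, and the 20-base probe at chr1:74440900-74440918. The interval listed for the 20-base probe is shorter than the probe itself. Each member was represented by the brighter of its probes, the 16-base and the 20-base probe.

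The LPS arrays were brighter as a whole, which touches every value below. Over the 198 miRNAs detected on every array, the 75th percentile of the signal averaged 477 ± 41.0 on control arrays and 2229 ± 180 on LPS arrays (SD, n = 3), 4.67 times as much, while the geometric mean of 4 spiked-in RNAs had a ratio of 0.878. Control arrays detected 213 to 228 miRNAs and LPS arrays 412 to 446. Arrays were therefore scaled to that percentile, and 412 miRNAs detected on every array of at least 1 group were tested. Of 7 blood-cell and macrophage miRNAs 5 were detected, while 5 of 6 serum and erythroid, 5 of 6 epithelial and 3 of 3 muscle miRNAs were detected on no array, as were 1417 of all 1881 miRNAs. A larger number of vesicles and more RNA per vesicle cannot be told apart in these samples.

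mmu-miR-26a-5p was detected on 3 of 3 LPS arrays and on 0 of 3 control arrays. Its 16-base probe had processed signals of 8.43, 9.49 and 8.70 on control 1, 2 and 3, and of 165, 202 and 195 on LPS 1, 2 and 3. The groups did not overlap, which after scaling held for 93.4% of the tested miRNAs, and the control signals lay within the background. On the control arrays 58.9% to 78.6% of negative-control spots, which match no mouse miRNA, were brighter than miR-26a-5p, whereas on the LPS arrays the miRNA exceeded the brightest negative-control spot (29.4 to 43.1). None of its 45 control spots (0 of 45) and all 45 LPS spots were well above background by the flag in the files.

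mmu-miR-26b-5p was detected on all 6 arrays, close to the edge of the background in control. Its 20-base probe read 30.6, 34.9 and 33.9 on control 1, 2 and 3, against 732, 859 and 826 on LPS 1, 2 and 3. These control signals exceeded the brightest negative-control spot on control 2 and control 3 but not on control 1. The well-above-background flag was set on 14 of 45 control spots and on 45 of 45 LPS spots, and on no control array for more than 50% of the probe's spots. Neither member can therefore be given a measured fold, and both are given as bounds.

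**Figure D1:**
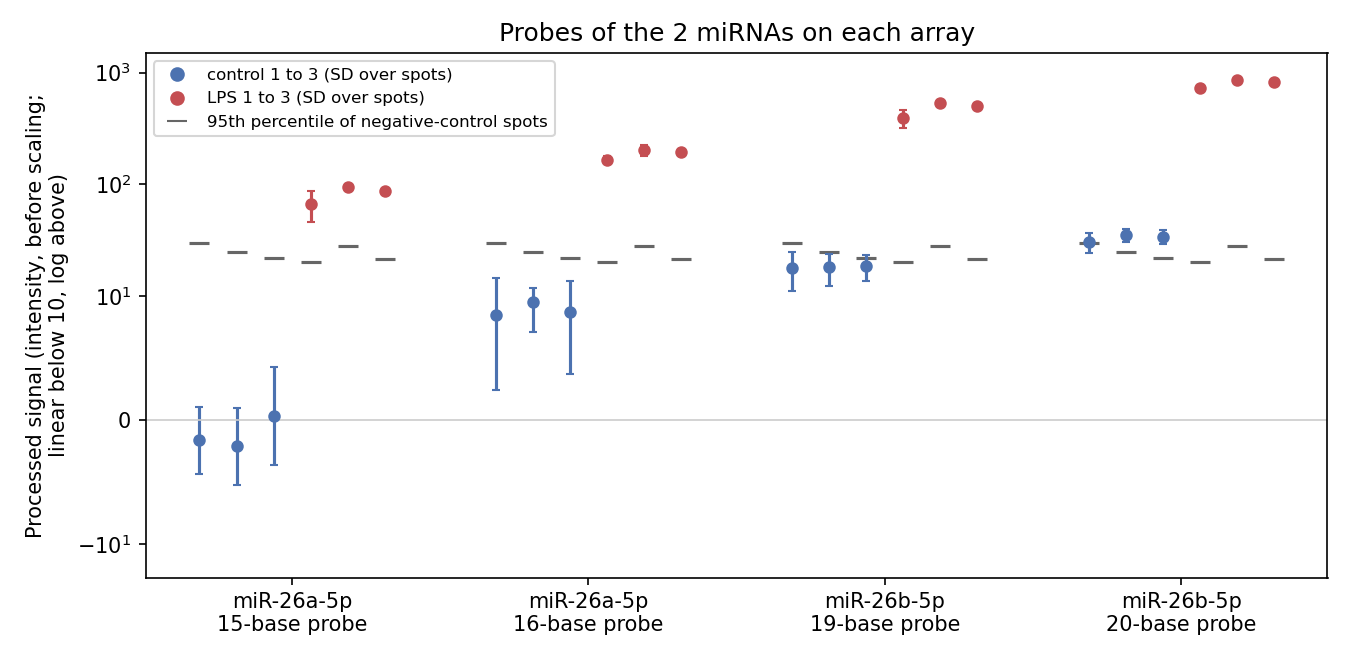
Processed signal before scaling (intensity; linear below 10, log above) of the 4 probes on each array, with bars for the SD over the spots of a probe and grey dashes for the 95th percentile of negative-control spots. On control arrays both miR-26a-5p probes and the 19-base miR-26b-5p probe lay below the grey dash of the same array, and the 20-base miR-26b-5p probe above it; all LPS points lay above.

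After scaling, miR-26b-5p was at least 4.98-fold higher in LPS and miR-26a-5p at least 1.17-fold higher, each bound being the LPS mean over the higher of the control signal and the lowest signal well above background on that control array. miR-26b-5p had scaled signals of 72.9, 70.4 and 71.2 in control and 372, 377 and 366 in LPS, or 71.5 ± 1.30 and 372 ± 5.74 (SD, n = 3). Its groups were far apart beside the spread within them, and groups without overlap were found for 93.4% of the tested miRNAs. The scaled signals of miR-26a-5p were 20.1, 19.1 and 18.3 in control and 83.9, 88.7 and 86.5 in LPS, or 19.2 ± 0.917 and 86.4 ± 2.40 (SD, n = 3). The lowest scaled signal well above background was 82.0, 68.0 and 72.2 on control 1, 2 and 3, so the LPS signals of miR-26a-5p were barely above what a control array could show. The direction of miR-26a-5p was therefore not readable in every processing: its bound fell below 1 with normexp background correction (0.615) and with scaling to the median (0.939), and was 1.04 with well above background as detection. The bound of miR-26b-5p moved as well, to 2.01 with normexp and 26.5 with spike-in scaling, and its fitted direction turned with the gene total signal (−0.65).

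**Figure D2:**
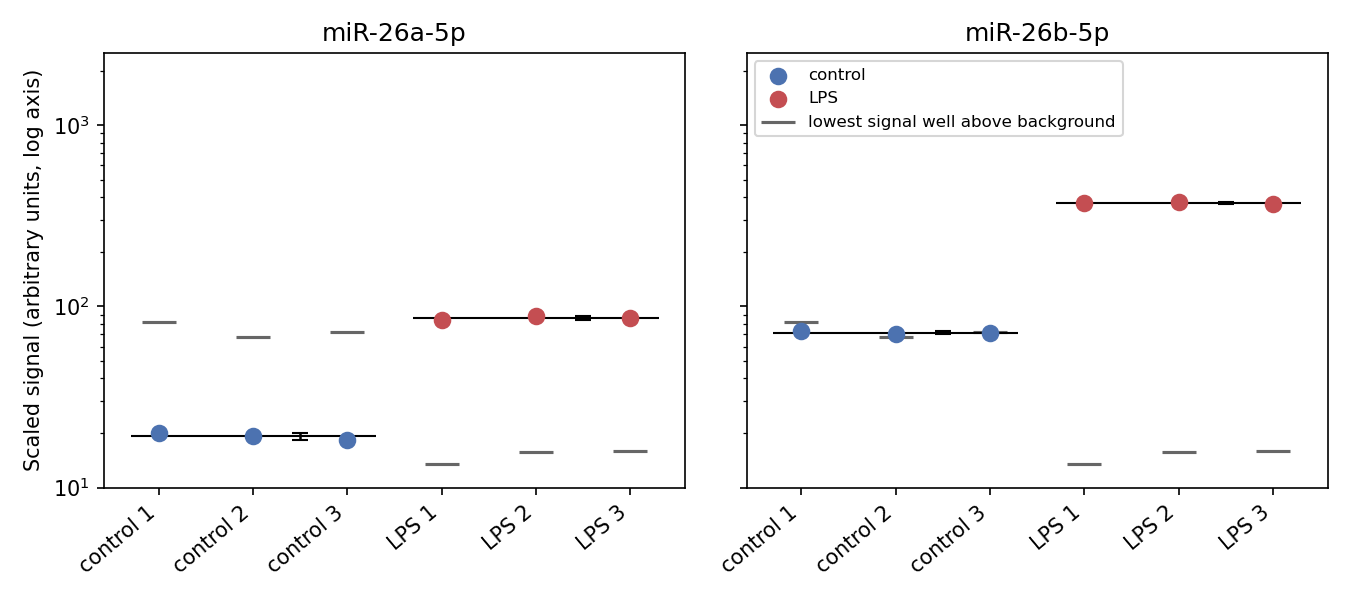
Scaled signal (arbitrary units, log axis) of miR-26a-5p and miR-26b-5p on each array, with the group mean as a line, its SD as a bar (n = 3) and the lowest signal well above background on that array as a grey dash. miR-26b-5p sat near 71.5 in control, close to the dashes, and near 372 in LPS; miR-26a-5p in LPS (83.9 to 88.7) was little above the control dashes (68.0 to 82.0), and its direction flipped with normexp.

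Both members passed the test as higher in LPS (2 of 2), as did 65.5% of the 412 tested miRNAs, with 26.7% lower and 92.2% called in either direction. Groups that did not overlap were as common, at 93.4%, and 44.2% were called higher by at least 2-fold. The fitted change of miR-26b-5p was 2.38 on the log2 scale (SE 0.04, limma adjusted p = 1.50e-08 by the Benjamini-Hochberg method), higher in 3 of 3 samples than in every control. For miR-26a-5p the fit gave 2.17 (SE 0.05, adjusted p = 6.44e-08 in limma), measured from control signals within the background. Being detected in LPS alone was common, at 45.4% of the tested miRNAs. Such a miRNA entered the test only through the group where it was high, so its call adds little to its detection. Of the 196 tested miRNAs that were well above background on some LPS array and on no control array, 28.1% had a bound above 1, and both members were among them. Among the 198 miRNAs detected on all arrays 58.1% passed as higher and 38.4% as lower, and their median change was 0.77. The fitted change of miR-26b-5p among them rests on control signals at the edge of the background and is not a measured fold.

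**Figure D3:**
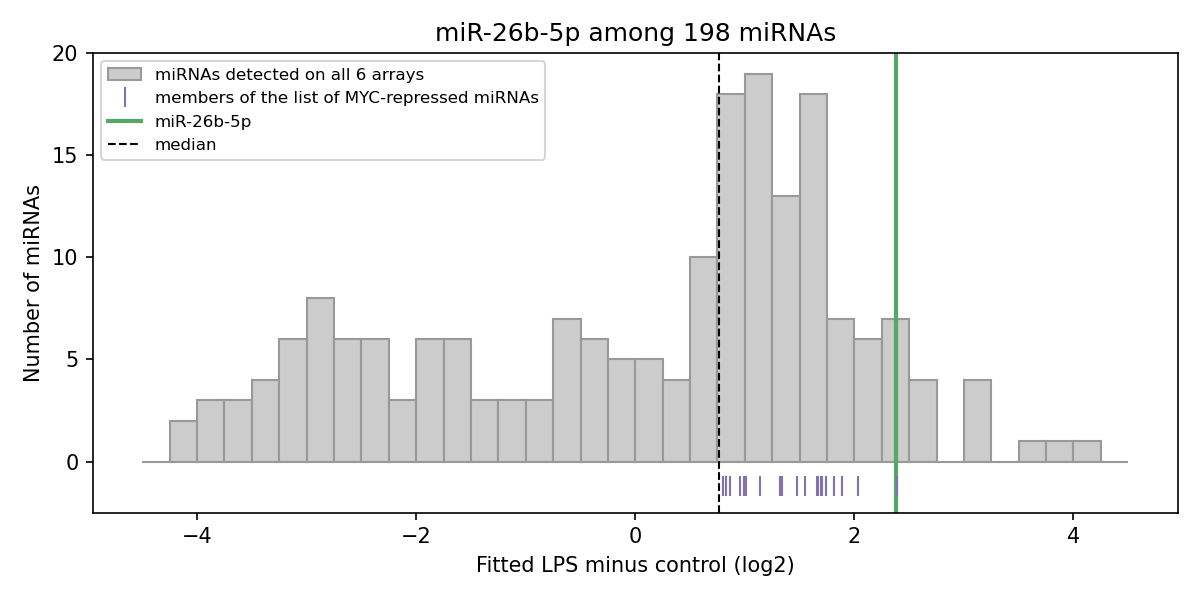
Number of miRNAs by fitted LPS minus control change (log2) among the 198 detected on all 6 arrays, with their median (dashed, 0.77), miR-26b-5p (green, 2.38) and, below the bars, the 20 members of the list of MYC-repressed miRNAs detected on all arrays. The fitted value of miR-26b-5p, with control signals at the edge of the background, lay in the right tail; with the gene total signal it lay at −0.65.

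The size of the fitted change of miR-26b-5p depended on the scaling. It was 4.79 with spike-in scaling, 4.60 with unscaled signals, 3.57 when the percentile was taken over all miRNAs and 2.06 with the median, while its distance from the median of the 198 miRNAs stayed at 1.61 by construction, since a factor per array moves all miRNAs alike. With normexp it was 1.03, or 0.91 above that median. With the gene total signal it turned to −0.65. The calls over all miRNAs moved too: higher calls were 71.1% of all calls here, 90.7% with spike-in scaling, 90.3% with unscaled signals, 85.1% when the percentile was taken over all miRNAs and 28.5% with normexp.

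**Figure D4:**
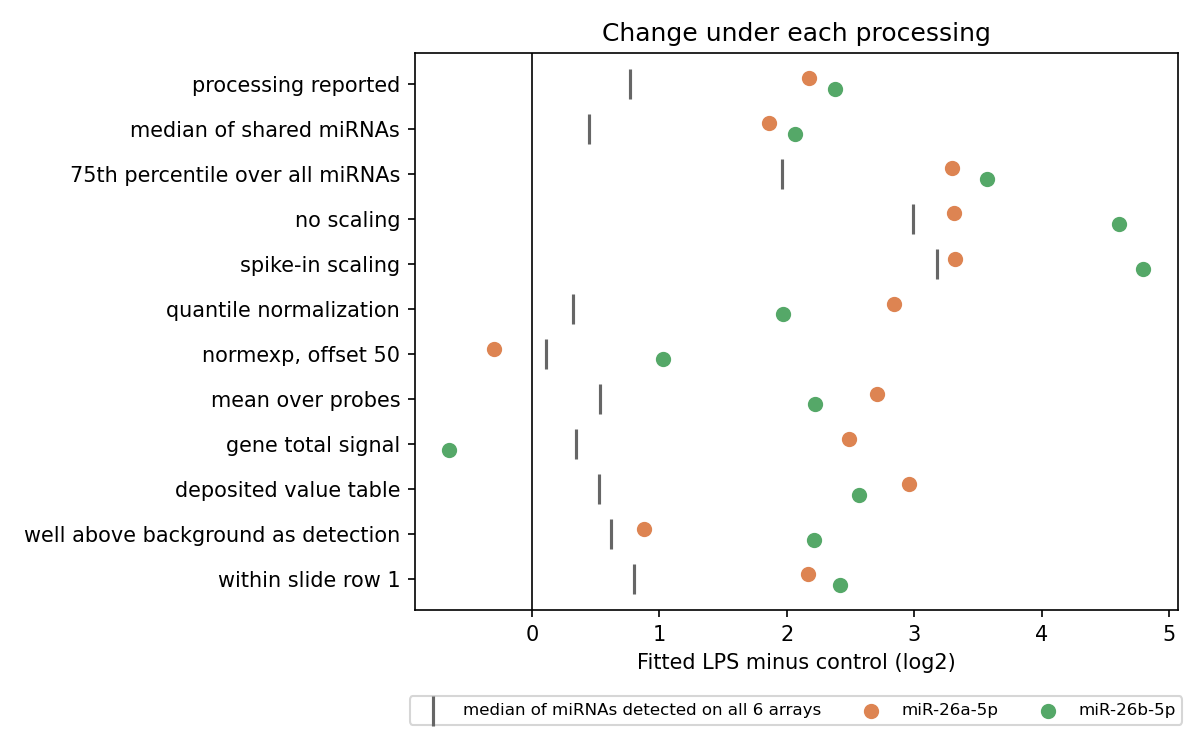
Fitted LPS minus control change (log2) of miR-26a-5p and miR-26b-5p under 12 ways of processing, with the median of the 198 miRNAs detected on all arrays as a grey tick. miR-26b-5p lay right of the tick except with the gene total signal (−0.65), and miR-26a-5p except with normexp (−0.30).

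The gene total signal, a sum that the scanner software reports per miRNA, behaved differently in the groups for miR-26b-5p. It was 104.6, 119 and 118 on control 1, 2 and 3, whereas the totals of its 2 probes summed to 10.3, 11.2 and 11.1, a ratio of 10.4 ± 0.217 (SD, n = 3). On LPS 1, 2 and 3 the gene total was 322, 409 and 383 and equalled the sum of the probe totals. The gene total exceeded 2 times the probe sum for 25.1% to 27.6% of detected miRNAs on control arrays and 23.5% to 24.4% on LPS arrays. For miR-26a-5p, which was not detected in control, the gene total was 1.96 to 2.16 in control. There it was identical to the error that the software reports for it on the same array. In LPS it was 66.3 to 86.9 and equalled the probe sum.

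The authors' value table gave both members as higher in LPS. It lists miR-26a-5p at 2.89, 2.90 and 2.87 in control and 5.72, 5.95 and 5.85 in LPS on its log2 scale, a difference of 2.96. The control values of miR-26a-5p were close to the column medians of 2.73 to 2.74, in a table where most miRNAs were detected on no array. miR-26b-5p is listed at 5.67, 6.07 and 5.66 in control and 8.29, 8.45 and 8.37 in LPS, a difference of 2.57. Both groups of 3 were apart in each case, and limma on this table gave adjusted p = 1.14e-07 for miR-26a-5p and 3.31e-06 for miR-26b-5p. Neither trait was particular to the members. The same fit called 288 miRNAs higher and 92 lower, and groups apart were found for 93.4% of tested miRNAs with the scaled signals. For miR-26a-5p, which entered the test only through LPS, the p-value adds little to its detection there.

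The second probe of each miRNA was also brighter in LPS. The 19-base probe of miR-26b-5p had signals of 17.8 to 18.5 in control, within the background, and of 392 to 536 in LPS, so no fold is given from it. In control 12.9% to 39.3% of negative-control spots were brighter than the 19-base probe. The 15-base probe of miR-26a-5p had signals from −2.12 to 0.299 in control, at or below 0 within the spread of its spots, and from 66.2 to 94.8 in LPS. Spots are repeats on 1 array and not replicates. Over the spots of an array the SD of the 20-base probe was 28.4 to 47.8 in LPS, and that of the 16-base probe 2.39 to 5.98 in control.

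Whether the 2 miRNAs changed by different amounts could not be read, because the control level of miR-26a-5p is only bounded. The fitted log2 change of miR-26a-5p minus that of miR-26b-5p was −0.21 (two-sided p = 0.1 by exact permutation, which cannot go lower with 3 samples a group). The sign turned with quantile normalization (0.87), the mean over probes (0.49), the gene total signal (3.13) and the authors' value table (0.39).

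The passenger strands of the same hairpins, which are usually degraded after the guide is chosen, were not detected. miR-26a-1-3p, miR-26a-2-3p and miR-26b-3p together have 8 probes, and 0 of their 540 spots on the 6 arrays were well above background. Over both groups together their probe signals ran from −3.84, on an LPS array, to 15.2, on a control array, with the highest for miR-26a-2-3p. A level of a passenger strand below the background was not detectable, in LPS as in control, so absence and a low level cannot be told apart.

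All arrays shared 1 slide, with the controls and LPS 1 in its first row and LPS 2 and LPS 3 in the second. Within the first row, where LPS 1 alone stands against the 3 controls, the fitted change was 2.42 for miR-26b-5p and 2.17 for miR-26a-5p. With the row as a block the changes were 2.38 and 2.13; as the second row holds no control, these too rest on LPS 1 alone and are no separate evidence. The feature size fraction that the software used was 0.6 on each control array and 0.812 to 0.829 on the LPS arrays, so it cannot be told apart from the treatment.

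The miRNAs whose profile over the 6 arrays was most like that of miR-26b-5p were let-7g-5p, miR-6969-5p and miR-652-3p. Likeness was the root-mean-square difference of scaled log2 profiles, each centred on its own mean, over 197 candidates detected on all arrays; it was 0.034, 0.049 and 0.052, against a median of 0.82. let-7g-5p, of the let-7 family that restrains growth, was at 244, 235 and 243 in control and 1300.0, 1226 and 1261 in LPS. Its fitted change was 2.39 (SE 0.04), and those of miR-6969-5p and miR-652-3p were 2.37 and 2.40. Likeness was taken on these same profiles, so for both members changes close to the member's own follow from the choice. The control signals of miR-26b-5p lay at the edge of the background. For miR-26a-5p the nearest were miR-425-5p, miR-183-5p and miR-532-5p, at 0.059, 0.064 and 0.066 against a median of 0.73, although its own control values lay in the background. The changes of miR-425-5p and miR-183-5p were 2.25 and 2.20, and miR-532-5p, which no control array had well above background, was at least 3.21-fold higher. With the gene total signal miR-652-3p (−2.44) and miR-532-5p (−1.45) turned lower.

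The list of miRNAs reported to be repressed by MYC together with miR-26 held 28 names, of which 20 were detected on all arrays, 7 in LPS alone and 1, miR-150-5p, on no array. All 20 of the first group passed as higher, against 58.1% of the 198 miRNAs detected on all arrays. The list was chosen with earlier results of these data known, so this contrast is no test of repression by MYC. miRNAs outside the list were higher as well, as 115 of the 198 passed as higher in all, while 38.4% of the 198 passed as lower. Of the 7, which entered the test only through LPS, 4 had a bound above 1. The 20 had a median change of 1.51, beside 0.77 over all 198 miRNAs, and ran from 0.80 to 2.39. The largest changes were those of let-7g-5p (2.39), let-7d-5p (2.03) and let-7c-5p (1.89). At the lower end were miR-34a-5p, a p53 target (0.87), miR-22-3p (0.83) and miR-30e-5p, which no control array had well above background (at least 1.37-fold higher). miR-30e-5p turned lower with normexp and with the gene total signal, and miR-29b-3p with the gene total signal.

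The list of miRNAs reported to target Ezh2 mRNA held 11 names, 5 of them shared with the MYC list. The 6 detected on all arrays passed as higher (5 of 6 with normexp), against 58.1% of the 198 miRNAs. As this list too was chosen with earlier results known, the contrast is no test of a link to Ezh2. They had a median change of 1.85, beside 0.77 over the 198, and were all let-7 family members: let-7g-5p (2.39), let-7d-5p (2.03), let-7c-5p (1.89), let-7a-5p (1.81), let-7b-5p (1.24) and miR-98-5p (0.96). miR-101a-3p, miR-101b-3p and miR-138-5p were detected in LPS alone with no bound above 1, and miR-124-3p and miR-214-3p on no array.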

How the data were processed

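Exosomal RNA was measured on 6 one-colour Agilent arrays. The authors deposited each array's scanner output as intensity values, background-subtracted by Agilent Feature Extraction 10.7.1.1 per the file headers; the submitters' processing notes name version 9.1. A second deposited table holds log2 values, and its normalization and centring are unknown. Across the detected miRNAs of each array they had r = 0.903 to 0.972 with the log2 processed signal. With the log2 gene total signal r was 0.522 to 0.703.

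Here, spots of a probe were averaged without outlier spots, a miRNA was its brightest probe, and detection was the flag in the files. Arrays were scaled to their 75th percentile over shared miRNAs, floored at 9.89 (3.31 on the log2 scale) and log2-transformed. A probe counted as well above background when over 50% of its spots were flagged. The difference between the groups was fitted by limma 3.58.1 under R 4.3.3 (adjusted p threshold 0.05). On simulated data over 412 miRNAs the fit called 98% of log2 changes of 1 and 7 of 212 unchanged miRNAs. In the measured data 92.2% of tested miRNAs were called, so these shares give no error rate for the members. No replicates held identical values (0 of the 198 miRNAs). The members and lists were chosen with earlier results of these data known. miRNAs named with values were the members, their other arms, 3 nearest profiles each, and up to 6 of each list with the largest and smallest changes. Further list miRNAs were named without a value, for detection in LPS alone or on no array, or for a turned direction. Precision is limited by how few arrays there are. Alternatives were other scalings, background corrections, summaries, filters, floors, blocks and left-out samples; scaling to the median and the first slide row alone were chosen after seeing the data.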

Additional observations from a re-analysis of the deposited data

How the results depend on the processing

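The alternative fits reuse the same arrays and are not independent. As miR-26a-5p entered the test only through LPS, a kept call adds little to its detection there. miR-26a-5p kept its fitted direction and call in 21 of 22 alternative fits, though not a bound above 1 in each. miR-26b-5p kept them in 22 of 23. The exceptions were miR-26a-5p with normexp (−0.30, adjusted p = 3.23e-05 in limma) and miR-26b-5p with the gene total signal (−0.65, adjusted p = 2.16e-05 in limma); the highest adjusted p over the alternatives, 0.000809 and 0.000205, came from slide row 1 alone. That setting and the slide row block rest on 1 LPS array, assumed to vary like the others, and say little about stability. The cause was not tested. Leaving out each replicate gave 2.12 to 2.19 for miR-26a-5p and 2.30 to 2.39 for miR-26b-5p. For the bound of miR-26a-5p, 1.17 became 2.67 with the percentile over all miRNAs, 5.47 without scaling, 6.24 with spike-in scaling, 0.615 with normexp, 1.04 with well above background as detection and 0.939 with scaling to the median. For that of miR-26b-5p, 4.98 became 11.4, 23.3, 26.5, 2.01, 4.44 and 3.997 in the same order, 5.11 within slide row 1, and 4.83 to 5.02 without 1 replicate. The median change of the 198 miRNAs, 0.77, was 1.96 with the percentile over all miRNAs, 2.99 without scaling, 0.32 with quantile normalization, 3.18 with spike-in scaling, 0.11 with normexp, 0.53 with the mean over probes, 0.34 with the gene total signal, 0.53 with the value table, 0.62 with well above background as detection, 0.80 within row 1, 0.45 with scaling to the median, and 0.67 to 0.79 without 1 replicate. The change of miR-26a-5p minus that of miR-26b-5p, −0.21, was −0.28 with the percentile over all miRNAs, −1.29 without scaling, −1.47 with spike-in scaling, −1.32 with normexp and −1.33 with well above background as detection; it turned to 0.87 with quantile normalization, 0.49 with the mean over probes, 3.13 with the gene total signal and 0.39 with the value table. Higher calls, 270, were 113 with normexp, 115 when only miRNAs found on all arrays were tested and 172 with well above background as detection; lower calls, 110, were 59 with the percentile over all miRNAs, 39 without scaling, 38 with spike-in scaling and 284 with normexp.

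Replicate numbers are shared between the groups. Over 198 miRNAs, deviations of same-numbered samples from their group means had r = −0.40, −0.22 and −0.28 across miRNAs. Differently numbered pairs ran from −0.32 to 0.43. Deviations from a mean of 3 arrays must cancel, so these values cannot decide whether same-numbered samples were paired. As both groups hold the same replicate numbers, a replicate block cannot move the fitted changes of 2.17 and 2.38. With it there were 270 higher and 110 lower calls. miR-26a-5p in control and all passenger strands in both groups were not detected, and the cause was not tested.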
